A study of Mus musculus with 6 samples.

Results

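The subunits of the mitochondrial respiratory chain and of ATP synthase were described in TKO mouse embryonic stem cells (mESCs) cultured in 2i or in serum. Members were the protein-coding genes whose symbols begin with the usual names of these subunits, from mt-Nd, mt-Co, mt-Cytb and mt-Atp for the mitochondrial genome to Nduf, Sdh, Uqcr, Cox4 to Cox8 and Atp5 for the nucleus. They were 107 of the 21836 protein-coding genes and of the 53390 genes in the files. The mitochondrial genome carries 13 of them and the nuclear genome 94, under 106 different symbols, since Atp5o had 2 gene records. This symbol rule also takes 8 assembly factors of complex I (Ndufaf1 to Ndufaf8) and Atp5s, which are not subunits, and leaves out the subunit Cyc1 and cytochrome c, which are given further on. Another 13 genes with matching symbols were not protein-coding and were left out.

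TKO mESCs carry inactivated Dnmt1, Dnmt3a and Dnmt3b genes, so that both groups lack functional forms of these DNA methyltransferases, and they derive from the J1 line. RNA was sequenced as poly(A)-selected, strand-specific libraries from 500 ng of RNA, with 3 libraries of TKO-2i and 3 of TKO-serum. TKO-2i cells grew with the MEK inhibitor PD0325901 at 1 µM, the GSK3 inhibitor CHIR99021 at 3 µM and LIF at 1000 U/ml, whereas TKO-serum cells grew in 15% fetal calf serum with LIF at 500 U/ml. The TKO line was kept on gelatin without feeder cells. The labels call the 3 libraries of a condition biological replicates, and total estimated counts lay between 38274042 and 51932739 per library.

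The respiratory chain sits in the inner mitochondrial membrane. Complexes I and II pass electrons from NADH and succinate to coenzyme Q, complex III passes them to cytochrome c, and complex IV passes them to oxygen, while complexes I, III and IV pump protons whose return through ATP synthase (complex V) drives ATP synthesis. Complexes I, III, IV and V combine subunits made from both genomes, whereas complex II is encoded in the nucleus alone. Mitochondrial genes are transcribed by a polymerase of their own as long polycistronic RNAs that are then cut apart.

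Levels are given in TPM (transcripts scaled to a fixed sum per library), which correct for transcript length, and values of single libraries are listed in the order of replicates 1, 2 and 3. A log2 fold change compares TKO-2i with TKO-serum, is positive where TKO-2i was higher, and was tested by quasi-likelihood in edgeR, with Benjamini-Hochberg adjustment of p over 18177 genes and a threshold of 0.05 (SE, its standard error). An exact two-sided permutation test of 3 libraries against 3 cannot give a p below 0.1, so single values were not tested that way.

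Both groups carried the transcripts of mESCs. Counts of markers that rose or fell in TKO-2i stand beside 31.9% of all genes tested that rose and 30.6% that fell. The same shares stand beside the counts for each complex and list further on. The 8 markers of mouse ES cells summed to between 4825 and 6220 TPM per library (5329, 4834 and 4825 TPM in TKO-2i and 6219.7, 5885 and 5993 TPM in TKO-serum), led by Dppa5a at 2081 to 2885 TPM, and 4 of the 8 fell, among them Utf1 at a log2 fold change of -1.33, and 1 rose, Nanog at 0.60. The 7 fibroblast markers would mark feeder cells, on which the TKO line was not grown. These markers summed to between 5.94 and 7.03 TPM, led by Thy1, and of the 4 that passed the filter on low counts 2 fell and 1 rose, Pdgfrb at 1.62. Markers of 2-cell-like cells, led by Zscan4f, summed to 0.597, 0.479 and 0.336 TPM in TKO-2i and to 38.1, 47.2 and 42.5 TPM in TKO-serum, and 6 of 6 fell. The mesoderm list, led by T, summed to 17.0, 17.4 and 22.4 TPM in TKO-2i and to 1.96, 2.65 and 2.37 TPM in TKO-serum, and 2 of its 3 genes tested rose. Endoderm (Gata4 the most abundant, 4 of 5 lower), trophoblast (Tfap2c, 2 of 5 higher and 2 lower) and neural markers (Tubb3, 3 of 3 tested lower) summed to between 4.16 and 10.4 TPM, between 24.3 and 36.3 TPM and between 78.2 and 129 TPM. No marker of any list was at 0 in every library. The part of these marker differences in the results on the respiratory chain was not tested. The Dnmt1, Dnmt3a and Dnmt3b loci still gave transcripts, at 31.0 ± 3.12 TPM (SD, n = 3) in TKO-2i and 27.4 ± 1.48 TPM (SD, n = 3) in TKO-serum for Dnmt1, 4.68 ± 0.459 TPM (SD, n = 3) in TKO-2i and 22.3 ± 0.942 TPM (SD, n = 3) in TKO-serum for Dnmt3a and 8.24 ± 1.43 TPM (SD, n = 3) in TKO-2i and 20.1 ± 1.16 TPM (SD, n = 3) in TKO-serum for Dnmt3b, which does not separate the groups by genotype, since both carry the same alleles.

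The nuclear members were higher in TKO-2i for the most part, whereas most mitochondrial members did not pass the test. Of the 91 nuclear members tested, 61 (67.0%) rose and 3 (3.30%) fell in TKO-2i, beside 31.9% of all genes tested that rose and 30.6% that fell. Their median log2 fold change was 0.36, with quartiles of 0.17 and 0.50, beside a median of 0.01 over all genes tested, and 81 of the 91 had a positive value. The rises were small: a rise with a log2 fold change of at least 1 was called for 1 nuclear member, Cox7a1, beside 7.72% of all genes, and a fall with a log2 fold change of at most -1 for 3, Cox8c, Cox7b2 and Atp5s, beside 15.6% of all genes. Of the 13 mitochondrial members, 3 rose, mt-Atp8, mt-Atp6 and mt-Cytb, and 10 did not pass, with a median log2 fold change of 0.12. No mitochondrial member was called lower by edgeR, and the count was also 0 at an unadjusted p under 0.05, with DESeq2 and with limma. It was 1 with the replicate number as a block and 2 without TKO-2i replicate 2. With both libraries numbered 2 left out, a choice made after seeing the data, it was 1. The difference between the 2 genomes was itself not tested. In these bulk libraries fewer cells of a type and less RNA per cell cannot be told apart.

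In all, the 13 mitochondrial members took 1.42%, 2.25% and 1.62% of the estimated counts of the TKO-2i libraries and 1.51%, 1.77% and 1.63% of the TKO-serum libraries. The mean share was 1.76% ± 0.436 (SD, n = 3) in TKO-2i and 1.64% ± 0.128 (SD, n = 3) in TKO-serum, which differed by less than the SD of TKO-2i, and the groups overlapped. The highest share in each condition was that of replicate 2. The 94 nuclear members took 1.41%, 1.18% and 1.36% of the counts in TKO-2i and 1.20%, 1.10% and 1.14% in TKO-serum. Their means were 1.32% ± 0.117 (SD, n = 3) and 1.15% ± 0.0525 (SD, n = 3), and TKO-2i replicate 2 lay below TKO-serum replicate 1, so the groups overlapped. Under each replicate number the TKO-2i share of the nuclear members was the higher, and replicate 2 had the lowest share in each condition. On the TPM scale the nuclear members summed to 26912, 24393 and 25730.4 TPM in TKO-2i and to 22583, 21585 and 21743 TPM in TKO-serum, with no overlap.

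**Figure D1:**
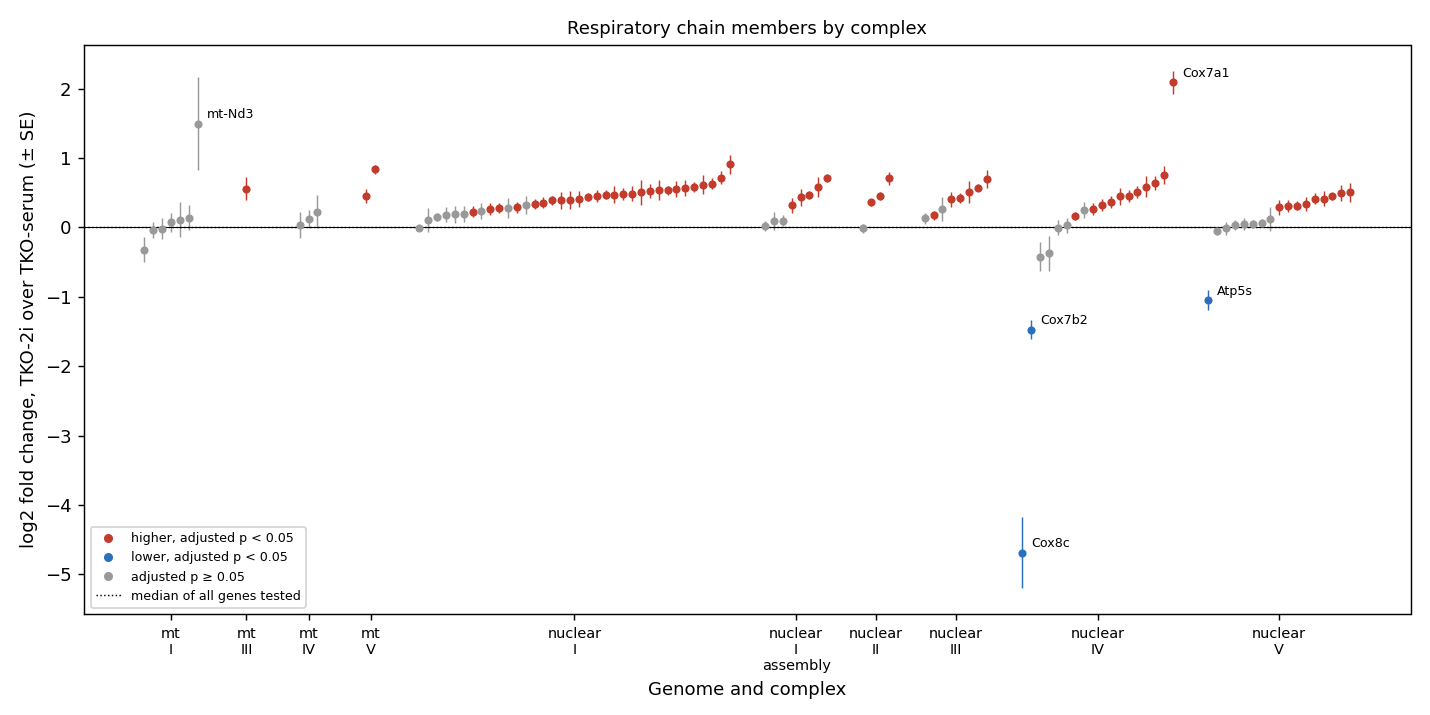
Log2 fold change of each tested member in TKO-2i against TKO-serum, grouped by genome and complex, with 1 point per gene, bars of 1 SE, red and blue for genes higher and lower at an adjusted p under 0.05 (edgeR), grey for the others, and a dotted line at the median of all genes tested. Nuclear members of complexes I, II and III lie mostly above 0, with medians of 0.40, 0.41 and 0.41, and the lowest points are those of Cox8c at -4.69 and Cox7b2 at -1.47 in complex IV.

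The nuclear members differ from other genes in length and level. They are short and abundant, with a median main transcript of 683 bases and a median level of 172 TPM, beside 2631 bases and 10.7 TPM over the 15085 protein-coding genes tested. Of the 513 other protein-coding genes with a main transcript under 1000 bases and a mean of at least 50 TPM, 204 rose and 53 fell, with a median log2 fold change of 0.16. Of the 866 genes tested on chromosome 6, 53.6% rose and 19.5% fell, with a median of 0.41. Of the 1399 on chromosome 11, 51.8% rose and 19.9% fell, with a median of 0.26. Over all genes tested these shares were 31.9% and 30.6%. The 9 nuclear members on these chromosomes all rose, with a median of 0.58, and of the 82 members elsewhere 52 rose and 3 fell, with a median of 0.33. The part of chromosome, length and level in the rises of the nuclear members was not tested.

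Complex I, the NADH dehydrogenase, is the largest of the complexes and had 36 nuclear members tested, of which 27 rose and 9 did not pass, with a median log2 fold change of 0.40. Their summed level was 6606, 5922 and 6334 TPM in TKO-2i and 5332, 5075 and 5054 TPM in TKO-serum. The lowest TKO-2i library lay above the highest TKO-serum library. Of the 7 core subunits, which carry the flavin and iron-sulphur clusters and are shared with bacteria, 6 rose, with a median of 0.34. Ndufv2, a core subunit that binds an iron-sulphur cluster near the entry of electrons, was at 217, 196 and 209 TPM in TKO-2i and 142, 132 and 132 TPM in TKO-serum. The 3 TKO-2i libraries lay well above the 3 TKO-serum libraries. Its log2 fold change was 0.72 (SE 0.10, edgeR, Benjamini-Hochberg adjusted p = 2.38e-04). Ndufs1, the largest core subunit, had a log2 fold change of -0.01 and did not pass.

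The 29 accessory subunits of complex I, which surround the core, had 21 rises and a median log2 fold change of 0.45. Ndufb4, an accessory subunit of the membrane arm, was at 58.6, 48.6 and 56.7 TPM in TKO-2i and 33.1, 31.1 and 31.8 TPM in TKO-serum. Every TKO-2i library was higher than every TKO-serum library, and its log2 fold change was 0.91 (SE 0.14, edgeR, Benjamini-Hochberg adjusted p = 5.39e-04). This level is uncertain, because 67.4% to 71.9% of the counts on Ndufb4 and its near-identical copy Ndufb4c were assigned to the copy. With the counts of both added, an alternative chosen after seeing the data, the log2 fold change was 0.89. Ndufa7 had the highest mean TPM among the nuclear members of the complex, at 561, 426 and 509 TPM in TKO-2i and 428, 359 and 391 TPM in TKO-serum. TKO-2i replicate 2 lay below TKO-serum replicate 1, so the groups overlapped, although its log2 fold change was 0.51 (SE 0.18, edgeR, Benjamini-Hochberg adjusted p = 0.0357). The call was lost without TKO-2i replicate 1 (log2 fold change 0.33), without TKO-2i replicate 3 (0.48), without TKO-serum replicate 2 (0.40) and without TKO-serum replicate 3 (0.51), and with limma on log2(TPM + 0.1) (0.34).

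Of the 8 assembly factors that the symbol rule takes, 5 rose and 3 did not pass, with a median log2 fold change of 0.38. Ndufaf1, which helps to build the membrane arm of complex I, was at 35.9, 41.0 and 36.2 TPM in TKO-2i and 24.0, 25.7 and 21.7 TPM in TKO-serum. All TKO-2i values were above all TKO-serum values, and its log2 fold change was 0.71 (SE 0.06, edgeR, Benjamini-Hochberg adjusted p = 1.27e-05). Among 11 further assembly factors outside the rule, 4 (36.4%) rose, near the 31.9% of all genes tested, and 1 (9.09%) fell, beside 30.6%, with a median of -0.04, from Nubpl, an iron-sulphur carrier, at 0.64 to Acad9 at -0.32. The fall of Acad9 was lost with length-scaled TPM (-0.15) and with limma (-0.24 with either pseudocount).

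Complex II, succinate dehydrogenase, has 4 subunits, and 3 of them rose. Sdhb, the iron-sulphur subunit, was at 138, 128 and 135 TPM in TKO-2i and 92.0, 87.4 and 87.1 TPM in TKO-serum. The groups did not overlap, and its log2 fold change was 0.71 (SE 0.10, edgeR, Benjamini-Hochberg adjusted p = 2.59e-04). Sdha, the flavoprotein that oxidises succinate, was at 149, 165 and 148 TPM in TKO-2i and 125, 135 and 125 TPM in TKO-serum. Its lowest TKO-2i library was above its highest TKO-serum library, with a log2 fold change of 0.36 (SE 0.05, edgeR, Benjamini-Hochberg adjusted p = 2.36e-04). Sdhd, a membrane anchor, was at 183, 177 and 176 TPM in TKO-2i and 135, 146 and 134 TPM in TKO-serum. It did not overlap between groups either, and its log2 fold change was 0.45 (SE 0.06, edgeR, Benjamini-Hochberg adjusted p = 3.15e-04). Sdhc, the other membrane anchor, was at 303, 268 and 268 TPM in TKO-2i and 288, 307 and 313 TPM in TKO-serum. Its groups overlapped, and its log2 fold change, -0.01 (SE 0.07, edgeR, Benjamini-Hochberg adjusted p = 0.886), did not pass. The 4 subunits summed to 773, 739 and 727 TPM in TKO-2i and to 641, 677 and 660.3 TPM in TKO-serum.

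Complex III, the cytochrome bc1 complex, had 8 nuclear members tested, of which 6 rose, with a median log2 fold change of 0.41 and values from 0.14 to 0.70. Uqcr10, a small subunit with the highest mean TPM among the nuclear members of the complex, was at 812, 717 and 822 TPM in TKO-2i and 574, 501 and 507 TPM in TKO-serum. The lowest TKO-2i library was well above the highest TKO-serum library, and its log2 fold change was 0.70 (SE 0.13, edgeR, Benjamini-Hochberg adjusted p = 0.00136). The core protein Uqcrc2 rose with a log2 fold change of 0.42, whereas the core protein Uqcrc1, at 0.14, did not pass. Uqcrfs1, the Rieske iron-sulphur protein, was called higher at 0.18, but it passed in only 8 of 19 settings of the processing, with values from 0.07 to 0.24. Cyc1, the haem-carrying subunit outside the symbol rule, was at 299, 291 and 296 TPM in TKO-2i and 287, 301 and 286 TPM in TKO-serum. Its groups overlapped, and its log2 fold change of 0.17 did not pass. Cytochrome c itself, the carrier from complex III to complex IV, was represented by Cycs, at 41.6, 34.5 and 37.5 TPM in TKO-2i and 26.9, 23.2 and 23.1 TPM in TKO-serum. The groups did not overlap, and it rose, with a log2 fold change of 0.71 (SE 0.10, edgeR, Benjamini-Hochberg adjusted p = 2.77e-04). The testis form of cytochrome c, Cyct, rose with a log2 fold change of 1.08, and of the 4 genes listed for cytochrome c and Cyc1 3 rose, with a median of 0.47. Of 6 assembly factors of complex III, 4 rose, with a median of 0.35 and Uqcc1 as the largest rise at 0.60.

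Complex IV, cytochrome c oxidase, held the largest changes among the members, and these lay in isoforms of restricted expression. Of its 20 nuclear members 18 were tested, 11 rose and 2 fell, and the median log2 fold change was 0.29. The 12 widely expressed members had 9 rises and a median of 0.34. Cox8a, a small subunit with the highest mean TPM among the nuclear members of the complex, was at 978, 939 and 918 TPM in TKO-2i and 793, 817 and 872 TPM in TKO-serum. The groups were apart by a narrow margin, between TKO-2i replicate 3 and TKO-serum replicate 3. Its log2 fold change was 0.32 (SE 0.08, edgeR, Benjamini-Hochberg adjusted p = 0.00856), and the call was lost with limma on log2(TPM + 0.1), where the log2 fold change was 0.19. Cox6b1, which faces the intermembrane space, was at 481, 392 and 461 TPM in TKO-2i and 295, 262 and 285 TPM in TKO-serum. All TKO-2i libraries lay above all TKO-serum libraries, and its log2 fold change was 0.76 (SE 0.13, edgeR, Benjamini-Hochberg adjusted p = 9.30e-04). Ndufa4, named for complex I but a subunit of complex IV, rose with a log2 fold change of 0.64, and Cox6a1 with 0.45. Cox4i1, the widely expressed form of a regulatory subunit, had a log2 fold change of 0.03 and did not pass. Its TPM were nevertheless lower in TKO-2i (621, 583 and 604 TPM) than in TKO-serum (676, 630 and 639 TPM), with no overlap.

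Cox7a1, the form of subunit VIIa known from heart and skeletal muscle, was at 119.9, 91.8 and 103 TPM in TKO-2i and 27.5, 25.3 and 28.1 TPM in TKO-serum. Every TKO-2i library lay above every TKO-serum library by a wide margin. Its log2 fold change was 2.09 (SE 0.17, edgeR, Benjamini-Hochberg adjusted p = 1.24e-05), which is a fold change of 4.27. Of the summed TPM of Cox7a1 and its widely expressed partner Cox7a2, Cox7a1 made up 24.1%, 20.1% and 21.7% in TKO-2i and 7.67%, 7.68% and 8.65% in TKO-serum. Cox7a2 itself also rose, with a log2 fold change of 0.37. Cox7b2, a form of subunit VIIb known from testis, was at 7.53, 6.72 and 9.36 TPM in TKO-2i and 22.7, 22.8 and 23.4 TPM in TKO-serum. Here the 3 TKO-serum libraries were the higher ones, with no overlap, and its log2 fold change was -1.47 (SE 0.14, edgeR, Benjamini-Hochberg adjusted p = 3.00e-05). Its partner Cox7b had a log2 fold change of 0.25 and did not pass. Cox7b passed without TKO-2i replicate 2 (0.37), without TKO-serum replicate 1 (0.37) and with both libraries numbered 2 left out (0.28), a choice made after seeing the data. With the replicate number as a block Cox7b also passed (0.25).

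Cox8c, the testis form of subunit VIII, had 0, 1 and 2 estimated counts in TKO-2i and 31, 32 and 27 in TKO-serum. TKO-2i was near 0 in each library, and the level in TKO-serum, at 4.24, 3.22 and 3.17 TPM, was also low beside that of Cox8a. Summed over libraries and scaled by library size, TKO-serum had 28.6 times the counts of TKO-2i, with a 95% exact interval of 9.49 to 141 that covers counting error only. The fall passed the test (adjusted p = 7.19e-05 from edgeR with Benjamini-Hochberg adjustment), and its fitted log2 fold change of -4.69 depends on the prior count. Cox6b2, the testis form of subunit VIb, was at 64.2, 74.9 and 66.9 TPM in TKO-2i and 51.2, 50.2 and 60.0 TPM in TKO-serum. Its groups did not overlap, and it rose with a log2 fold change of 0.45 (SE 0.08, edgeR, Benjamini-Hochberg adjusted p = 0.00162). Its share of the summed TPM of Cox6b1 and Cox6b2 was 13.5% ± 2.24 (SD, n = 3) in TKO-2i and 16.1% ± 1.30 (SD, n = 3) in TKO-serum.

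Among the remaining restricted forms, Ndufa4l2, a hypoxia-inducible relative of Ndufa4, was at 12.1, 8.17 and 10.2 TPM in TKO-2i and 18.0, 14.8 and 21.5 TPM in TKO-serum. All TKO-2i values were below all TKO-serum values, but its log2 fold change, -0.42 (SE 0.21, edgeR, Benjamini-Hochberg adjusted p = 0.121), did not pass. Ndufa4l2 passed in 7 of 19 settings, among them length-scaled TPM (-0.72), limma on log2(TPM + 1) (-0.77) and on log2(TPM + 0.1) (-0.83), and without TKO-2i replicate 1 (-0.66). Cox4i2, the form of Cox4 known from lung and low oxygen, had a log2 fold change of -0.37 and did not pass, although its TPM groups did not overlap, and it passed with limma on log2(TPM + 1) (-0.36) and on log2(TPM + 0.1) (-0.50). Cox6a2, the heart and muscle form of subunit VIa, had 0, 4 and 2 counts in TKO-2i and 1, 3 and 1 in TKO-serum and was not tested, and Cox8b had 0 counts in every library, under the floor of 3 counts that a library can be said to show. Of 23 assembly factors of complex IV tested, 14 rose and 1 fell, with a median of 0.25, from Coa3, which acts on newly made Cox1 protein, at 0.94 to Cmc1 at -0.85.

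**Figure D2:**
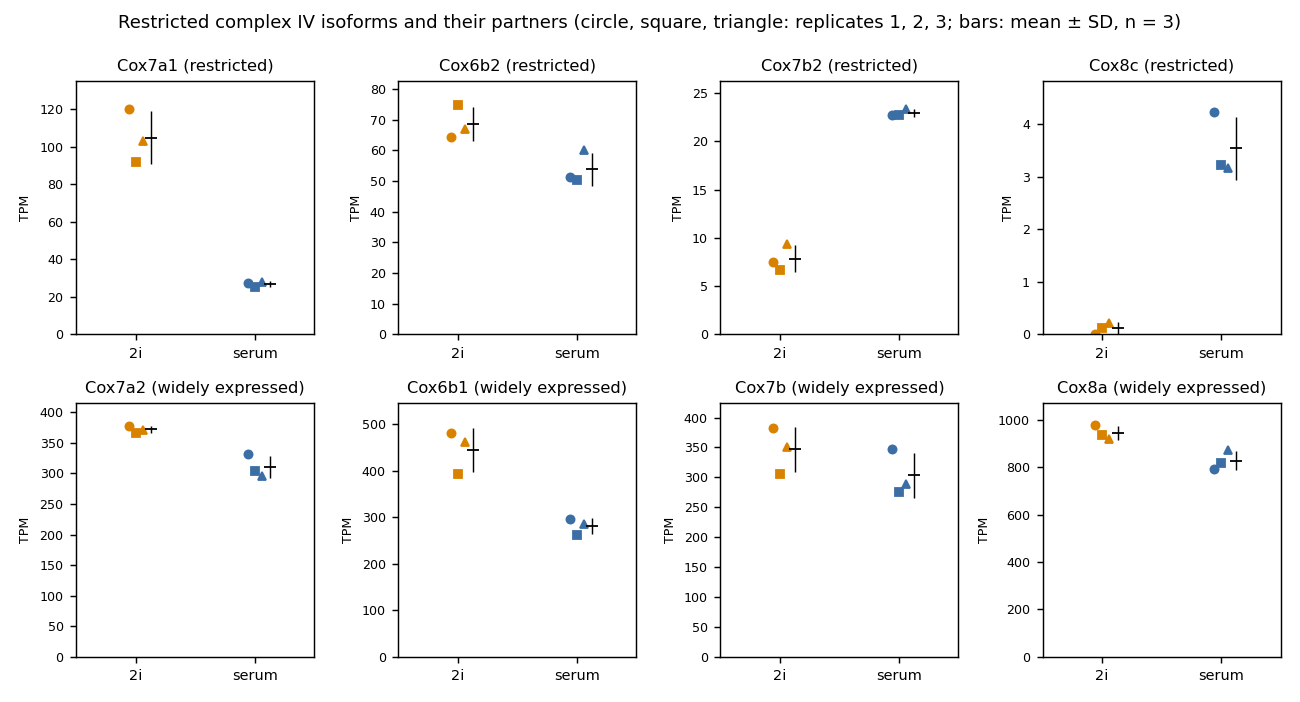
TPM of 4 complex IV isoforms of restricted expression (top) and of their widely expressed partners (bottom), with 1 point per library, a marker shape per replicate number and bars for the mean ± SD (n = 3). Cox7a1 lies at 91.8 TPM or more in TKO-2i and at 28.1 TPM or less in TKO-serum, whereas Cox7b2 and Cox8c lie lower in TKO-2i.

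Complex V, ATP synthase, had 17 of its 18 nuclear records tested, and the median log2 fold change was 0.29. Of the 17, 9 (52.9%) rose and 1 (5.88%) fell, beside 31.9% and 30.6% of all genes tested. The F1 part, which makes ATP, had 2 rises among 5 subunits and a median of 0.13. This share of 40.0% was near the 31.9% of all genes tested. Atp5b, the catalytic beta subunit and the most abundant nuclear member, was at 1772, 1642 and 1652 TPM in TKO-2i and 1737, 1725 and 1738 TPM in TKO-serum. The groups overlapped, and its log2 fold change, 0.04 (SE 0.07, edgeR, Benjamini-Hochberg adjusted p = 0.675), did not pass. Without TKO-2i replicate 2 it passed at a log2 fold change of 0.11. The c ring, which turns as protons pass, is encoded by Atp5g1, Atp5g2 and Atp5g3, and 2 of the 3 rose, with a median of 0.45. Their summed level was 1841, 1704 and 1775 TPM in TKO-2i and 1395, 1381 and 1410.0 TPM in TKO-serum, with no overlap. The level of Atp5g2 is uncertain, because 91.5% to 93.4% of the counts on it and on its identical copy Gm10175 were assigned to the copy. Of 4 peripheral stalk subunits tested 2 (50.0%) rose, with a median of 0.19. The second record of Atp5o had 0, 2 and 0 counts in TKO-2i and 2, 0 and 0 in TKO-serum and was not tested.

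Atp5s, also called coupling factor B, which the symbol rule takes although it is not a subunit of the enzyme, was at 2.53, 3.34 and 2.37 TPM in TKO-2i and 6.41, 5.26 and 6.91 TPM in TKO-serum. All TKO-serum libraries were higher than all TKO-2i libraries, and its log2 fold change was -1.05 (SE 0.14, edgeR, Benjamini-Hochberg adjusted p = 2.71e-04). Among the 4 genes listed as assembly or regulatory factors of complex V, 2 rose, with a median of 0.29 and Fmc1, an assembly factor, as the largest rise at 0.88.

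Among the mitochondrially encoded members the ATP synthase genes rose. mt-Atp8, a small membrane subunit, was at 3151, 3629.8 and 3585 TPM in TKO-2i and 2139, 2001 and 2047 TPM in TKO-serum. The groups were far apart, and its log2 fold change was 0.84 (SE 0.07, edgeR, Benjamini-Hochberg adjusted p = 1.01e-05). mt-Atp6, the proton channel subunit a, overlaps mt-Atp8 on the same transcript and was at 5834, 6465 and 6128 TPM in TKO-2i and 5017, 4188 and 5315 TPM in TKO-serum. Its groups did not overlap, and its log2 fold change was 0.45 (SE 0.10, edgeR, Benjamini-Hochberg adjusted p = 0.0039). With the counts of its near-identical copy Gm10925 added, the log2 fold change was 0.40 (SE 0.15, edgeR, Benjamini-Hochberg adjusted p = 0.0450), still past the threshold, but the TPM groups then overlapped. mt-Cytb, the cytochrome b of complex III, was at 2841, 4525 and 3534 TPM in TKO-2i and 2356, 2846 and 2573 TPM in TKO-serum. TKO-2i replicate 1 lay below TKO-serum replicate 2, so the groups overlapped. Its log2 fold change was 0.56 (SE 0.17, edgeR, Benjamini-Hochberg adjusted p = 0.0175). The call was lost without TKO-serum replicate 1 (log2 fold change 0.50) and without TKO-serum replicate 3 (0.54), and with limma (0.47 with either pseudocount).

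The 7 mitochondrial subunits of complex I and the 3 of complex IV did not pass. mt-Co1, the catalytic subunit of complex IV and the most abundant member, was at 6367, 11131 and 7450.1 TPM in TKO-2i and 7402, 9813 and 8155 TPM in TKO-serum. TKO-2i held both the highest and the lowest of these values, and its log2 fold change, 0.04 (SE 0.19, edgeR, Benjamini-Hochberg adjusted p = 0.875), did not pass. The log2 fold changes of mt-Nd1, mt-Nd2, mt-Nd4, mt-Nd4l and mt-Nd5 were 0.07, -0.04, 0.14, 0.11 and -0.02. That of mt-Nd6, the member encoded on the light strand, was -0.32. Without TKO-2i replicate 2, mt-Nd6 passed at -0.53 and mt-Nd5 at -0.22. With the replicate number as a block mt-Nd6 also passed (-0.33). With both libraries numbered 2 left out, a choice made after seeing the data, 4 mitochondrial members rose and 1 fell, mt-Nd6 at -0.43, with a median of -0.08, and of the nuclear members 71 rose and 4 fell, with a median of 0.39.

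**Figure D3:**
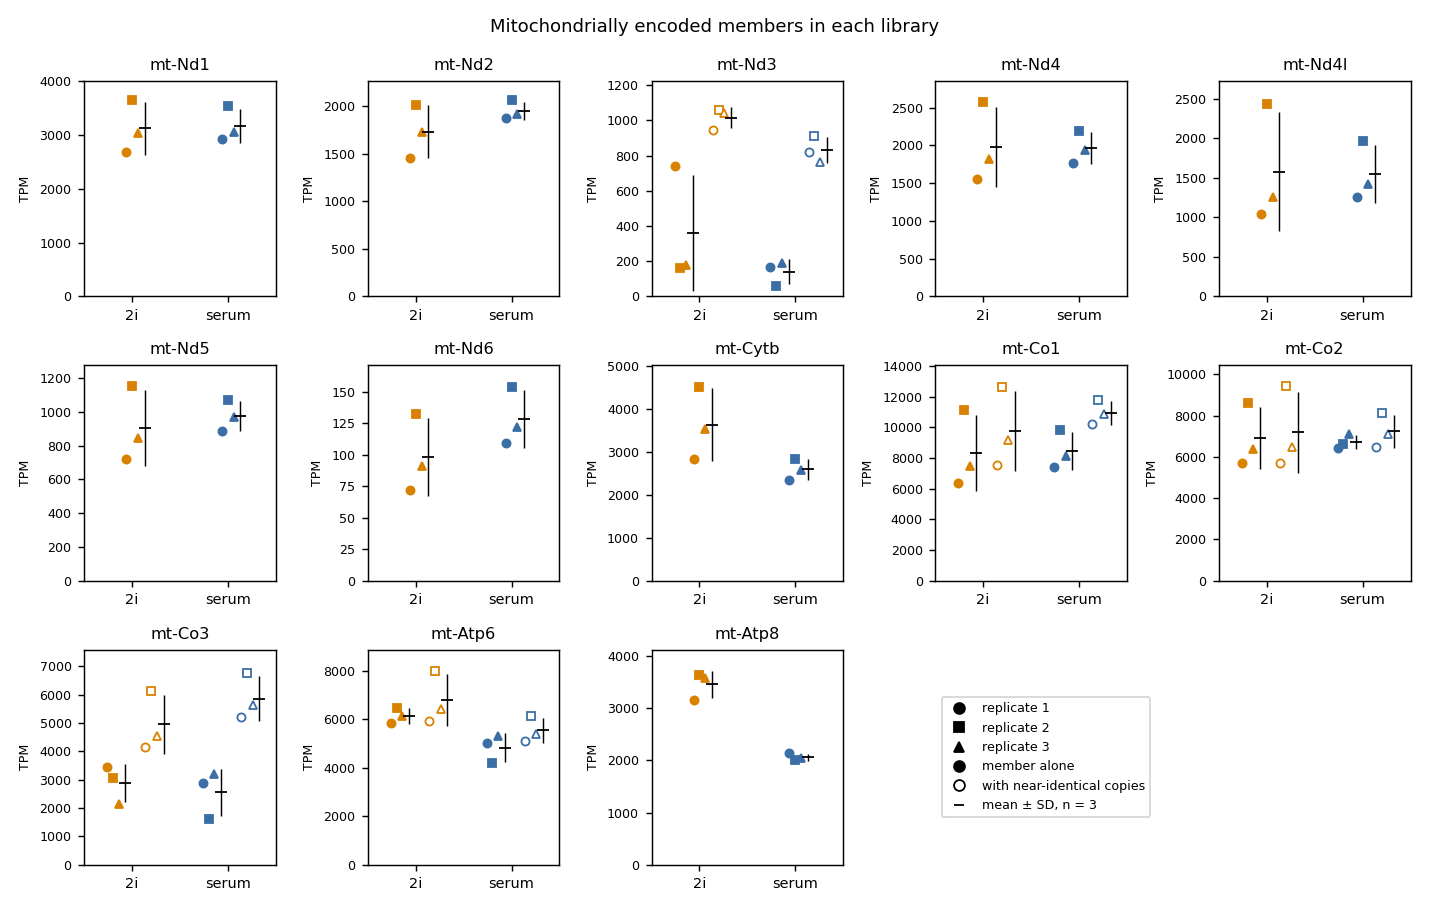
TPM of the 13 mitochondrially encoded members in each library on linear axes from 0, with filled points for the member alone, open points for the sum with its near-identical copies, a marker shape per replicate number and bars for the mean ± SD (n = 3). The groups are apart for mt-Atp8 at 3151 TPM or more in TKO-2i and 2139 TPM or less in TKO-serum, and intermingle for mt-Co1.

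Several mitochondrial members share reads with nuclear copies of the mitochondrial genome, so their values are uncertain. A search of the annotated transcripts found 25 near-identical non-coding copies of 21 members, of which 13 copies held at least 100 counts, and those of 7 mitochondrial members (mt-Co1, mt-Co2, mt-Co3, mt-Atp6, mt-Nd3, mt-Nd4 and mt-Nd4l) lie together on chromosome 1. mt-Nd3, a membrane subunit of complex I, was at 741, 162 and 176 TPM in TKO-2i and 167, 58.2 and 191 TPM in TKO-serum. TKO-2i replicate 1 stood far above the other 5 libraries, and the gene's log2 fold change, 1.50 (SE 0.67, edgeR, Benjamini-Hochberg adjusted p = 0.0804), did not pass. The value was 0.34 without TKO-2i replicate 1 and did not pass, whereas mt-Nd3 passed with no filter (1.49), without TKO-2i replicate 2 (1.90) and with both libraries numbered 2 left out (1.48), a choice made after seeing the data. With the replicate number as a block mt-Nd3 also passed (1.28). Of the counts on mt-Nd3 and its copy Gm28438, 21.7%, 84.5% and 82.8% were assigned to the copy in TKO-2i and 79.4%, 93.5% and 74.7% in TKO-serum. With both added, TPM were 945.7, 1060.2 and 1042 in TKO-2i and 823, 909.8 and 766 in TKO-serum, with no overlap, and the log2 fold change was 0.39 (SE 0.07, edgeR, Benjamini-Hochberg adjusted p = 0.00124). For mt-Co3, with 17.1%, 49.9% and 52.5% in TKO-2i and 44.6%, 75.9% and 43.3% in TKO-serum on Gm28437, the log2 fold change moved from 0.23 to -0.18 when the copy was added, and neither value passed. The start of mt-Nd3 and of its copy shows how little separates them: over 345 compared bases the only difference was T3C, with positions counted from 1 at the start of the mt-Nd3 transcript, and it is in capitals.
mt-Nd3: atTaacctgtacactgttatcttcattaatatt
Gm28438: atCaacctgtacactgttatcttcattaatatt

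The ribosomal RNAs of the mitochondrial genome, which are not members, were measured in the same libraries. The 12S RNA mt-Rnr1 was at 110.3, 126 and 131 TPM in TKO-2i and 462, 472 and 459.7 TPM in TKO-serum, and it fell, with a log2 fold change of -1.79 (SE 0.09, edgeR, Benjamini-Hochberg adjusted p = 9.09e-07). The 16S RNA mt-Rnr2 had a log2 fold change of 0.01 and did not pass. Libraries were selected for poly(A), and how the selection bears on these RNAs was not tested.

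Of 34 tested genes that express and maintain mitochondrial DNA, 15 (44.1%) rose and 4 (11.8%) fell, beside 31.9% and 30.6% of all genes tested, with a median log2 fold change of 0.13. Grsf1, an RNA-binding protein of mitochondrial RNA granules, was at 148, 151 and 149.6 TPM in TKO-2i and 54.3, 58.2 and 54.7 TPM in TKO-serum. The groups were far apart, and it rose, with a log2 fold change of 1.53 (SE 0.05, edgeR, Benjamini-Hochberg adjusted p = 1.45e-07). Top1mt, the mitochondrial topoisomerase, fell with a value of -0.68. Tfam, which packages mitochondrial DNA and starts its transcription, had a log2 fold change of -0.05, and Polrmt, the mitochondrial RNA polymerase, 0.02, and neither passed. Of 78 mitochondrial ribosomal protein genes 38 rose and 2 fell, with a median of 0.25, from Mrpl53 at 1.04 to Mrpl23 at -0.87. Of 10 translation factors 4 rose and 3 fell, shares not far from those of all genes, with a median of 0.15, from Mtif2 at 0.46 to Gfm2 at -0.38.

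Of 20 nuclear regulators of respiratory genes, 7 (35.0%) rose and 7 (35.0%) fell, shares near the 31.9% and 30.6% of all genes tested, with a median of -0.03. Ppargc1b, a coactivator of respiratory genes, was at 2.10, 2.81 and 1.94 TPM in TKO-2i and 1.12, 1.08 and 1.16 TPM in TKO-serum. The groups did not overlap, and it rose, with a log2 fold change of 1.03 (SE 0.11, edgeR, Benjamini-Hochberg adjusted p = 7.03e-05). Esrra, the nuclear receptor ERRα, was at 16.6, 20.04 and 16.7 TPM in TKO-2i and 11.5, 11.9 and 10.7 TPM in TKO-serum. Its lowest TKO-2i library was above its highest TKO-serum library, and it rose, with a log2 fold change of 0.83 (SE 0.10, edgeR, Benjamini-Hochberg adjusted p = 1.28e-04). Nrf1 rose with a log2 fold change of 0.42 and Esrrb with 0.33, the latter lost with limma (0.22 with either pseudocount). Gabpa, at 0.02, did not pass, and Ppargc1a was not tested because of low counts. Among the falls, Epas1, the hypoxia factor HIF-2α, was at 2.86, 4.13 and 3.02 TPM in TKO-2i and 10.9, 12.5 and 11.2 TPM in TKO-serum, and it fell, with a log2 fold change of -1.70 (SE 0.08, edgeR, Benjamini-Hochberg adjusted p = 5.23e-07). Myc, a transcription factor with many growth-related targets, was at 12.2, 13.5 and 12.9 TPM in TKO-2i and 29.8, 32.0 and 28.0 TPM in TKO-serum, and it fell, with a log2 fold change of -1.14 (SE 0.06, edgeR, Benjamini-Hochberg adjusted p = 1.34e-06). Lin28a, an RNA-binding protein, and Mycn fell with values of -1.66 and -1.12.

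Lists of other genes around the chain were described in the same way. Over all 261 genes tested on the 15 lists, 127 (48.7%) rose and 27 (10.3%) fell, beside 31.9% and 30.6% of all genes tested, and the median log2 fold change was 0.18. The tricarboxylic acid cycle and its entry had 10 rises and 2 falls among 21 genes, with a median of 0.15, from Ogdhl at 0.48 to Pcx, pyruvate carboxylase, at -1.39. Coenzyme Q synthesis had 7 rises and 1 fall among 13, with a median of 0.19, from Coq8b at 0.84 to Coq8a at -0.73. Other donors of electrons to coenzyme Q had 5 rises and 1 fall among 8, with a median of 0.17, from Etfb, of the electron transfer flavoprotein, at 0.44 to Chdh, choline dehydrogenase, at -1.36, which had a mean of 0.0620 TPM. The assembly factors of complex II had 1 rise among 4, Sdhaf3 at 0.50. Mitochondrial import, fusion and chaperone genes had 9 rises and 2 falls among 18, with a median of 0.17, from the fusion protein Mfn1 at 1.04 to the chaperone Hspd1 at -0.37.

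Of 7 carriers and uncoupling proteins tested, 4 (57.1%) rose and 3 (42.9%) fell, with a median of 0.24. Over all genes tested these shares were 31.9% and 30.6%. The ADP/ATP carriers, which exchange the product of ATP synthase for ADP, moved in opposite directions. Slc25a4 was at 327, 301 and 314 TPM in TKO-2i and 244, 241 and 239 TPM in TKO-serum, with no overlap, and it rose, with a log2 fold change of 0.48 (SE 0.08, edgeR, Benjamini-Hochberg adjusted p = 7.24e-04). Slc25a5 was at 571, 607 and 577 TPM in TKO-2i and 955, 1008 and 969 TPM in TKO-serum, also without overlap, and it fell, with a log2 fold change of -0.65 (SE 0.05, edgeR, Benjamini-Hochberg adjusted p = 6.93e-06). Slc25a31, the testis form, was at 1.19, 1.29 and 0.982 TPM in TKO-2i and 5.39, 4.93 and 4.68 TPM in TKO-serum, and it fell, with a log2 fold change of -2.02 (SE 0.14, edgeR, Benjamini-Hochberg adjusted p = 4.01e-06). Slc25a14, a carrier of the uncoupling protein family, had the largest rise of the list at 0.96. Slc25a4 and Slc25a5 were named after their values were seen.

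Promoter sequences of nuclear members were compared with 4 short motifs, because so many of the members rose together. Windows of 250 bases before to 50 bases after the annotated start were taken from RefSeq (GRCm38.p6) and matched 74 nuclear members. The motifs, searched on both strands, were CCGGAAG of the ETS factor GABP, TGCGCA of an NRF1 half-site, which reads the same on both strands, TCAAGGTCA of the oestrogen-related receptors and ATGGCGG of YY1. At least 1 of them was in a window of 54.1% of the members and of 20.6% of all 27025 genes in the table. These genes were not selected by level, whereas the members are abundant, and a set matched in level was not compared. CCGGAAG and TGCGCA were each found in 24.3% of the members, beside 9.93% and 8.79% of all genes. ATGGCGG was found in 16.2% beside 4.69%, and TCAAGGTCA in 2.70% beside 0.466%. Within the members, 52.8% of the 53 that rose held a motif and 63.2% of the 19 that did not pass, a difference that was not tested, and a match is only a description of the letters. Members with no matched window included Atp5a1, Atp5f1, Atp5mpl, Atp5s, Cox4i1, Cox4i2, Cox6a2, Cox6c, Cox8c, Ndufa2, Ndufa4l2, Ndufaf6, Ndufb9, Ndufs1, Sdhc, Uqcrb, Uqcrc2 and Uqcrq.

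The 250 bases before the start are printed for Cox7a1, Ndufb4 and Cox6b1, which had the largest rises, and for Sdhd, whose window held 3 motif matches before the start, each 5′ to 3′ on the strand of the gene with motif matches in capitals. Cox7a1 lies on the plus strand (chr7:30183921-30184170), and its window held no match. Ndufb4 (chr16:37654369-37654618), Cox6b1 (chr7:30626115-30626364) and Sdhd (chr9:50603850-50604099) lie on the minus strand. Sequences and starts are those of RefSeq on GRCm38.p6.
Cox7a1: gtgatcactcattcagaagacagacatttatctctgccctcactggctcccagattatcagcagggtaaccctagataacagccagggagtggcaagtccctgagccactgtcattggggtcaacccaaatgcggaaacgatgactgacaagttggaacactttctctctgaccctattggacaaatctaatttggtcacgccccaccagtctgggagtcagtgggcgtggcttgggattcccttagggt
Ndufb4: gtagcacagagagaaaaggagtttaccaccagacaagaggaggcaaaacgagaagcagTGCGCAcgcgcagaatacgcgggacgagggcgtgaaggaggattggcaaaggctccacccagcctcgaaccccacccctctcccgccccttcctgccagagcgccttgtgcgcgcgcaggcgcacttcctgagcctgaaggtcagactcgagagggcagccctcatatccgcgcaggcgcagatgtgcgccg
Cox6b1: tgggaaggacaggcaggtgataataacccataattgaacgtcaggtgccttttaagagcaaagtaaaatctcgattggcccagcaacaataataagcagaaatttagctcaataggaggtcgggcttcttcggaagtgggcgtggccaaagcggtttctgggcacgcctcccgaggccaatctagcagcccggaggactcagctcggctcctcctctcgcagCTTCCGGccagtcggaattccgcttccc
Sdhd: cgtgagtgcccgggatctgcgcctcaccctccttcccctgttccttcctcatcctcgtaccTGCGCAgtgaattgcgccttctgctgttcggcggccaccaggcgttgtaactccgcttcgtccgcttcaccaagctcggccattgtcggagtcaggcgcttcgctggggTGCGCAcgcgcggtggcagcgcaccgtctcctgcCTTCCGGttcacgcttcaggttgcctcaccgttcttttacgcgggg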

How the data were processed

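RNA-seq values of 3 TKO-2i and 3 TKO-serum libraries were used. The authors deposited estimated counts per transcript, which are not normalized and divide shared reads between transcripts, and TPM per transcript, deposited beside them and scaled for length and to a fixed sum. The submitters' processing notes name mm10. The quantifier and its index are not given in the sources used here. Transcripts were matched by identifier to the annotation of GRCm38, leaving 188 of 136288 unmatched with 0.0473% to 0.0643% of the counts. Estimated counts were summed per gene, rounded to whole numbers, filtered with filterByExpr, normalized by TMM and tested with edgeR 4.0.16 in R 4.3.3, with the condition as the only factor. The standard error is the absolute log2 fold change divided by the square root of F. Near-identical copies were found with blastn 2.17.0 (at least 98% identity over at least 50% of the copy and 100 bases). DESeq2 1.42.0 and limma 3.58.1 on log2(TPM + 1) and log2(TPM + 0.1) were among the alternatives. The fit was also run on simulated data, and no conclusion is drawn from that run here.

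Named genes were all mitochondrial members. Among nuclear members that passed with a mean of at least 1 TPM, they were the 6 largest rises and all 3 falls. Also named were the most abundant nuclear member of each complex, the Sdh subunits, the restricted isoforms with their partners, and set regulators. The largest rise and fall of each pathway list under the same conditions were named as well. Other genes were named after their values were seen. The members and lists were chosen with earlier results of these data known. Intervals and floors cover counting error only.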

Additional observations from a re-analysis of the deposited data

How the results depend on the processing

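Of the 71 tested genes on the list of named genes, which holds members and genes of the other lists, 59 kept their side of the threshold in every alternative that tested them (at most 18), and of 52 that passed, 47 kept the call. The calls lost among these 52 were those of mt-Cytb, Ndufa7, Cox8a, Acad9 and Esrrb, and none of the 52 changed sign, whereas some genes that did not pass, mt-Co1 and mt-Co3 among them, changed sign between settings. Of all 61 nuclear members that rose, named or not, 39 passed in every setting and 61 of 61 kept their sign. The 61 were picked by the main fit and every setting reused the same libraries, so these counts are not independent support. With limma on log2(TPM + 1), 54 of 91 nuclear members rose and 6 fell, and 86 of 261 list genes rose and 42 fell. Over all 18177 genes 4160 rose and 5684 fell in that setting. On log2(TPM + 0.1), 47 nuclear members rose and 5 fell, and 77 list genes rose and 31 fell. In that setting 3955 of all genes rose and 5562 fell. As a share of summed TPM, the mitochondrial members took 4.11% in TKO-2i and 3.71% in TKO-serum and the nuclear members 2.57% and 2.20%. With near-identical copies added, a choice made after seeing the data, the mitochondrial share in TKO-serum was 1.86%, and over counts on protein-coding genes only, the nuclear share in TKO-serum was 1.21%. With both libraries numbered 2 left out, also chosen after seeing the data, 1 mitochondrial member fell. These libraries stood apart from the others of their condition. The chi-square per gene between 2 libraries of TKO-2i was 48.1 and 29.3 for pairs with replicate 2 and 7.51 for the other pair. In TKO-serum it was 16.4 and 11.2 for pairs with replicate 2 and 4.78 for the other pair. Leaving out each library in turn gave 0 to 2 mitochondrial members that fell (2 without TKO-2i replicate 2), 2 to 4 that rose, 41 to 75 nuclear members that rose and 3 to 4 that fell. For each of these the cause was not tested.

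With the replicate number as a replicate block, 71 nuclear members rose and 4 fell, 4 mitochondrial members rose, mt-Nd3 among them at 1.28, and 1 fell, mt-Nd6 at -0.33, Cox7b passed at 0.25 and Ndufa4l2 at -0.44, and 6444 of all genes rose and 6095 fell. Deviations from the group means correlated between same-numbered libraries at 0.242, 0.329 and 0.0140, and 5 of 6 libraries correlated best with their own number. Whether the numbers pair the libraries is not known. The main fit used no block, so it leaves out any structure that same-numbered libraries share. Depth limits Cox8c, Cox6a2, Cox8b and the second Atp5o record, which had few or no counts.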
